A study of Homo sapiens with 4 samples.

Results

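The genes described are the E2F transcription factors and the pocket proteins that bind them. They were chosen by gene symbol, as E2F1 to E2F8, RB1 and RBL1, and all 10 had a row among the 15562 genes of the RNA-seq tables. H1975 is an established human lung adenocarcinoma cell line, labelled wild type (WT) here and grown in RPMI medium with fetal bovine serum. The hypoxia group was kept for 24 h in a gas mix of 94% N2, 1% O2 and 5% CO2, and the normoxia group, also for 24 h, in the usual humidified incubator with 5% CO2, whose oxygen level is not given in the labels. Each group was measured by 1 RNA-seq library and 1 small RNA (miRNA-seq) library, 4 libraries in all. A single library per condition gives no measure of how cultures vary, so no p-value is given and every difference describes a pair of libraries.

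E2F factors bind promoters of genes needed for DNA replication and cell cycle entry, as dimers with a DP partner (TFDP1 or TFDP2). E2F1, E2F2 and E2F3 are classed as activators, E2F4 and E2F5 as repressors that act with pocket proteins, E2F6 as a repressor that works through polycomb complexes, and E2F7 and E2F8 as atypical repressors that need no DP partner. The pocket proteins RB1, RBL1 (p107) and RBL2 (p130) hold E2F factors in check until cyclin-dependent kinases phosphorylate them. Several E2F genes and RBL1 are themselves known targets of E2F factors, which makes the family a feedback loop.

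The known E2F binding sequence was searched for in the promoters of the members, because several of them are known E2F targets. The words searched were TTTCCCGC, TTTCGCGC, TTTGCCGC and TTTGGCGC on both strands, in RefSeq promoters of GRCh38.p14 that run from 250 bases before a start site to 50 after it. Counted by gene over any promoter in the table, 4 of the 8 members with one (50%) held at least 1 word, against 6.22% of 12308 genes of the count table with a promoter. The 4 were E2F1, E2F2, E2F3 and RBL1. The 120 bases before the start site are shown 5′ to 3′ with these words in capitals; a word on the opposite strand appears as its reverse complement.
E2F1 (chr20:33686386-33686505, minus strand): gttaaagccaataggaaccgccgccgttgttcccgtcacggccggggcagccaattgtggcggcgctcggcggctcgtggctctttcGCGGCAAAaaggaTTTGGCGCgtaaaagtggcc
E2F2 (chr1:23531234-23531353, minus strand): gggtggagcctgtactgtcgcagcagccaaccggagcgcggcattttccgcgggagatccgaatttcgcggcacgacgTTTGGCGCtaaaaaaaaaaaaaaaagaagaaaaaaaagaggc
RBL1 (chr20:37095998-37096117, minus strand): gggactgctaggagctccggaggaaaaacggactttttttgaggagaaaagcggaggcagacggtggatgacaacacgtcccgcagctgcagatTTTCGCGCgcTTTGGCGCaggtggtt
E2F3 (chr6:20401759-20401878, plus strand): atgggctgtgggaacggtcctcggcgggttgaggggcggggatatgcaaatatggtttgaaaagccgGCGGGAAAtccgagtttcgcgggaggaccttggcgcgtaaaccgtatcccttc
In E2F1 the word TTTGGCGC began 20 bases before the start site, in E2F2 42 and in RBL1 16. E2F1 and RBL1 held a second word each, which began 33 and 26 bases before the start. In E2F3 the word TTTCCCGC lay on the opposite strand, 53 bases before the start.

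E2F4, E2F6 and E2F7 held none of these words in the same window, and their sequences are shown for contrast, with no capitals because there is no match.
E2F4 (chr16:67192035-67192154, plus strand): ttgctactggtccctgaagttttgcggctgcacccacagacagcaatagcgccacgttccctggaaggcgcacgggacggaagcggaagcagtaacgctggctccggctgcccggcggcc
E2F6 (chr2:11466162-11466281, minus strand): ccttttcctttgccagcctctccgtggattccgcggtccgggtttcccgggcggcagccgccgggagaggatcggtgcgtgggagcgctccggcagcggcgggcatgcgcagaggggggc
E2F7 (chr12:77065570-77065689, minus strand): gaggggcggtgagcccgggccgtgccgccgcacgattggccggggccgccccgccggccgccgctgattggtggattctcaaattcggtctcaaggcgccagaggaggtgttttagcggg
The absence of a match says only that these letters are not in the window. The core of the hypoxia response element (ACGTG or GCGTG, both strands) was found in 4 of the 8 members (50%), E2F3, E2F4, E2F6 and RBL1, against 66.9% of genes of the count table. In E2F3 it lay in the second annotated promoter, 1735 bases further on, as the overlapping word ACGTG on both strands. The cell cycle homology region (CHR; TTTGAA or TTCGAA, both strands) was found in 1 of the 8 (12.5%), E2F3, against 16.0% of genes of the count table.

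The RNA-seq libraries held 18943320 counts in hypoxia and 17643836 in normoxia. Of 10 hypoxia markers, 9 had a 95% counting interval of the log2 ratio of hypoxia over normoxia wholly above 0, against 15.0% of all genes tested. The exception was ADM (0.26, -0.10 to 0.62), the median was 0.64 and the highest value that of NDRG1 (1.32). The 7 epithelial markers were all expressed, the lowest, CDH1, at 9.47 FPKM in hypoxia and 9.11 in normoxia. Of these 7, 5 had an interval wholly below 0, against 14.0% of all genes tested, with the lowest ratio in KRT7 (-0.42, -0.45 to -0.40), and EPCAM and CDH1 had intervals that held 0. Intervals narrow with counts, and the share of all genes is not matched for counts. KRT8, with 63715 counts in hypoxia, was at -0.10 (-0.11 to -0.08). EPCAM was at 52.65 FPKM in hypoxia and 49.97 in normoxia, and the lung lineage factor NKX2-1 at 34.8 and 32.3 FPKM. The surfactant genes SFTPB and SFTPC, markers of mature alveolar cells, did not pass the filter. Among the 5 endothelial markers the highest value was 0.730 FPKM in hypoxia and 1.00 in normoxia. The 5 fibroblast markers summed to 20.3 FPKM in hypoxia and 19.7 in normoxia, most of it COL1A1 (16.1 and 15.1 FPKM), while COL3A1 was higher (60 counts in hypoxia against 25 in normoxia; log2 ratio 1.17, 0.48 to 1.91) and COL1A2 lower (226 and 271; -0.35, -0.62 to -0.09). The 3 leukocyte markers with a row summed to 12.8 FPKM in hypoxia and 18.5 in normoxia. Most of the leukocyte sum was CD14 (10.9 and 14.9 FPKM), which like CD79A had an interval wholly below 0, while the defining marker PTPRC had 2 counts in hypoxia and 0 in normoxia.

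Transcript levels were compared between members per length, as FPKM from the authors' table, which divide the counts by gene length and library total. E2F4 was the most abundant member in both libraries, at 51.0 FPKM in hypoxia and 51.7 in normoxia. E2F1 came next at 16.3 and 22.8 FPKM, then E2F8 at 7.50 and 7.55 FPKM. These 3 were apart from each other and from the rest in both libraries, in that their 95% counting intervals did not overlap. In hypoxia E2F7 (5.02 FPKM), E2F6 (4.75), E2F5 (4.33), E2F3 (3.58) and RBL1 (3.14) followed, and each overlapped the next. In normoxia the order was E2F6 (5.29 FPKM), E2F7 (4.68), E2F5 (4.41), RBL1 (3.80) and E2F3 (3.11), where RBL1 and E2F3 did not overlap. RB1 and E2F2 were the lowest, at 1.36 and 0.955 FPKM in hypoxia, against 1.17 and 1.45 FPKM in normoxia, and overlapped each other in both.

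**Figure D1:**
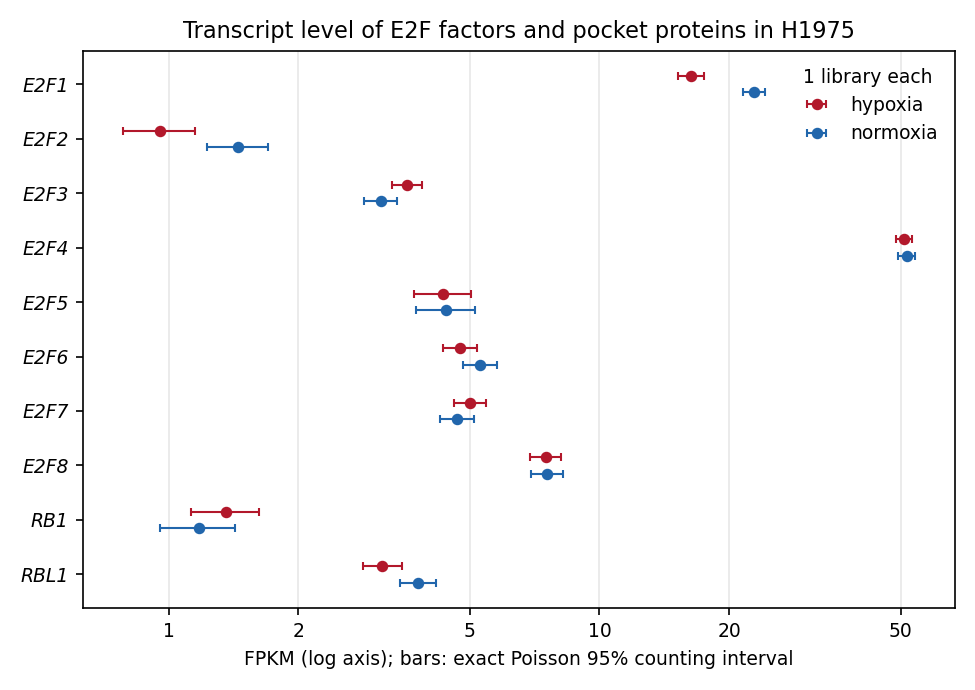
Level of each member in FPKM (log axis) in the hypoxia and normoxia libraries, 1 library each, with exact Poisson 95% counting intervals. E2F4 lies near 51 FPKM in both libraries, while E2F1 lies at 16.3 FPKM in hypoxia and 22.8 in normoxia.

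Differences between the libraries were taken from the deposited counts, scaled by the trimmed mean of M values (TMM), as the log2 ratio of hypoxia over normoxia with its exact 95% counting interval. All 10 members passed the filter, a CPM (count per 1000000 scaled counts) of 1 in at least 1 library, and all 10 did so in both libraries. Of the 10, 3 had an interval wholly below 0 (E2F1, E2F2 and RBL1), against 14.0% of the 12725 genes tested, and 1 had an interval wholly above 0 (E2F3), against 15.0%. Intervals narrow with counts, and the shares of all genes given here and below are not matched for counts. A 2-fold difference with an interval off 0 was met by 0 members in either direction, against 0.472% of genes higher and 0.440% lower. A smaller threshold, a log2 ratio of 0.32 or more in size with such an interval, was met by 2 members on the lower side (E2F1 and E2F2), against 3.29% of genes, and by 0 on the higher side, against 3.41%. The median log2 ratio of the members was -0.012 and that of all genes tested 0.0033. The members did not move as a block. In bulk RNA, fewer cells in a given phase of the cycle and less of a transcript per cell cannot be told apart.

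Among the activators, E2F1 and E2F2 were lower in hypoxia and E2F3 was not. E2F1, the activator best known for driving S phase entry, had 831 counts in hypoxia against 1084 in normoxia (log2 ratio -0.48, -0.61 to -0.34), or 1.39-fold lower (1.27 to 1.52). Of the 10739 genes read at least 100 times in each library, 0.559% had a lower ratio than E2F1, and of all genes tested 2.93%. E2F2, a close relative of E2F1, had 108 counts in hypoxia against 153 in normoxia (log2 ratio -0.60, -0.96 to -0.23), or 1.51-fold lower (1.17 to 1.95). A lower ratio than that of E2F2 was found in 0.177% of the 10739 genes, most of them read more deeply, and in 1.75% of all genes tested. E2F3 had 614 counts in hypoxia against 496 in normoxia (log2 ratio 0.22, 0.04 to 0.39). Its annotated starts give rise to the E2F3a and E2F3b forms, which a count per gene cannot tell apart. E2F3 has the greatest gene length of the family, 9043 bases as implied by the FPKM. With the trend of the ratio with gene length removed, the log2 ratio of E2F3 was 0.16 and its interval held 0.

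Because 1 library has no replicate, the spread of all genes with similar counts was used as a description of how far genes lay apart. Of the 2540 genes with a mean of 800 to 1600 counts, the central 95% had log2 ratios from -0.24 to 0.27, and E2F1 lay below this range. Of the 1135 genes with a mean of 100 to 200 counts the range was -0.50 to 0.54, and E2F2 lay below it, while E2F5 and RB1 lay inside. Of the 1907 genes at 200 to 400 counts it was -0.39 to 0.39, which held RBL1. Of the 2518 genes at 400 to 800 counts it was -0.31 to 0.30, which held E2F3, E2F6, E2F7 and E2F8. E2F4 lay inside the range of the 1623 genes at 1600 to 3200 counts (-0.22 to 0.24).

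**Figure D2:**
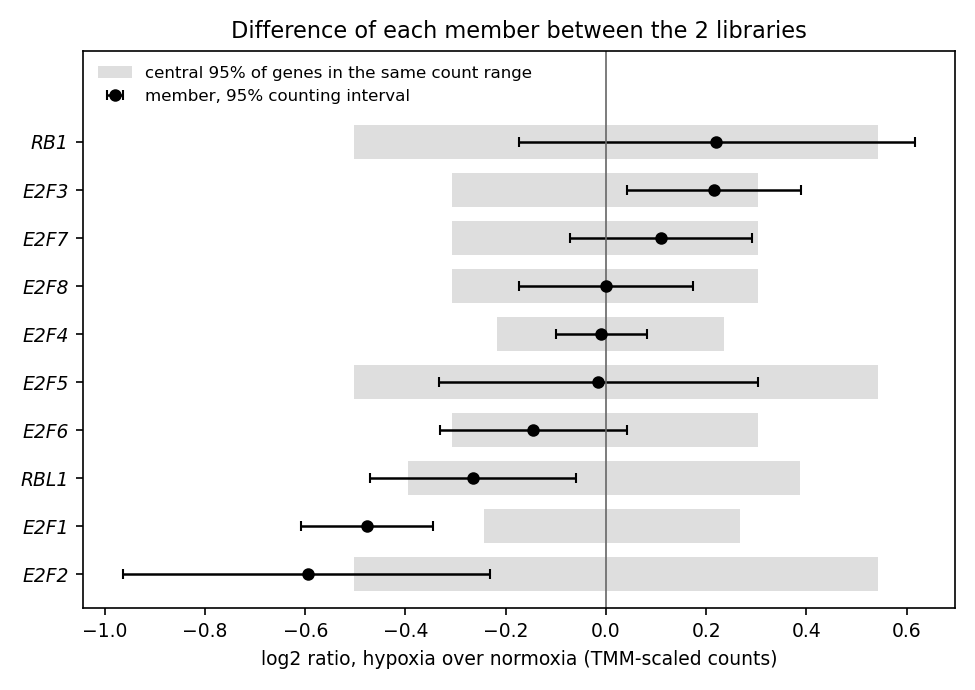
Log2 ratio of hypoxia over normoxia for each member with its 95% counting interval (black), over the range that holds the central 95% of genes in the same range of counts (grey). E2F1 (-0.48) and E2F2 (-0.60) lie below their grey ranges and the other members lie inside theirs.

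The repressor E2Fs differed little. E2F4, a main partner of RBL1 and RBL2, had 2039 counts in hypoxia against 1924 in normoxia, a ratio of 0.994 (0.933 to 1.06). E2F5, which also works with the pocket proteins, had 172 counts in hypoxia against 163 in normoxia, a ratio of 0.990 (0.794 to 1.23), and its locus on chromosome 8 (85177154 to 85214518, GRCh38.p14) overlaps RBIS, which had 481 and 412 counts. The strand setting of the counting is not stated in the sources, so reads shared by E2F5 and RBIS are uncertain. Both intervals held no difference, and that of E2F5 is the wider because it rests on few counts.

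E2F6 had 464 counts in hypoxia against 481 in normoxia (log2 ratio -0.14, -0.33 to 0.04). For E2F6, 4 pseudogenes are annotated, none of them with a row of its own, and E2F3 and E2F4 have 2 and 1. How alike these copies are was not examined, and any reads shared with them cannot be separated in a count per gene. Small differences of these genes are thus uncertain. The atypical repressor E2F7 had 535 counts in hypoxia against 465 in normoxia (log2 ratio 0.11, -0.07 to 0.29). Its relative E2F8, on chromosome 11 (19224063 to 19241655), had 562 counts in hypoxia against 527 in normoxia, a ratio of 1.00 (0.886 to 1.13). For these 3 genes the interval held no difference.

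Among the pocket proteins, RBL1 was lower in hypoxia, with 369 counts in hypoxia against 416 in normoxia (log2 ratio -0.27, -0.47 to -0.06). RB1, the retinoblastoma gene on chromosome 13 (48303751 to 48481890), had 123 counts in hypoxia against 99 in normoxia (log2 ratio 0.22, -0.17 to 0.62), and its interval is too wide at this depth to show a difference of this size. The third pocket protein gene, RBL2, is not one of the 10 members and had 1572 counts in hypoxia against 1337 in normoxia (log2 ratio 0.14, 0.03 to 0.25). Per length RBL2 was the most abundant of the pocket protein genes, at 15.4 FPKM in hypoxia and 14.1 in normoxia, against 3.14 and 3.80 FPKM for RBL1 and 1.36 and 1.17 FPKM for RB1.

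Ratios between genes of the same libraries do not depend on scaling. Relative to E2F4, E2F1 was lower in hypoxia by a log2 difference of -0.47 (-0.63 to -0.31). The difference was -0.69 (-0.91 to -0.47) relative to E2F3, -0.59 (-0.81 to -0.36) relative to E2F7 and -0.70 (-1.12 to -0.28) relative to RB1. It was -0.46 (-0.81 to -0.12) relative to E2F5, -0.33 (-0.56 to -0.10) relative to E2F6 and -0.48 (-0.70 to -0.26) relative to E2F8. Relative to E2F2 (0.12, -0.27 to 0.51) and RBL1 (-0.21, -0.46 to 0.04) the interval held 0. The ratio of hypoxia over normoxia of E2F1 was thus lower than that of 7 of the 9 other members beyond counting error. These comparisons all use the same E2F1 counts, so they are not separate results. The log2 difference of E2F2 relative to E2F3 was -0.81 (-1.22 to -0.40), and that of RBL1 relative to RBL2 was -0.41 (-0.64 to -0.17).

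The make-up of the E2F transcripts differed between the libraries. The activators held 22.3% of the summed FPKM of the 8 E2F genes in hypoxia and 27.1% in normoxia. E2F1 alone held 17.4% in hypoxia and 22.6% in normoxia, while E2F3 held 3.83% and 3.08%. E2F4 and E2F5 held 59.2% in hypoxia and 55.5% in normoxia, E2F6 5.08% and 5.24%, and the atypical E2Fs 13.4% and 12.1%. The summed level of E2F4 and E2F5 was 55.3 FPKM in hypoxia and 56.1 in normoxia. Their larger share in hypoxia thus came with a lower total, not with a higher level. The atypical E2Fs summed to 12.5 FPKM in hypoxia and 12.2 in normoxia. The summed level of the activators relative to that of E2F4 and E2F5 was 0.377 (0.351 to 0.404) in hypoxia and 0.489 (0.457 to 0.522) in normoxia. The summed level of all 8 E2F genes was 93.5 FPKM in hypoxia and 101 FPKM in normoxia, and most of this gap came from E2F1.

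**Figure D3:**
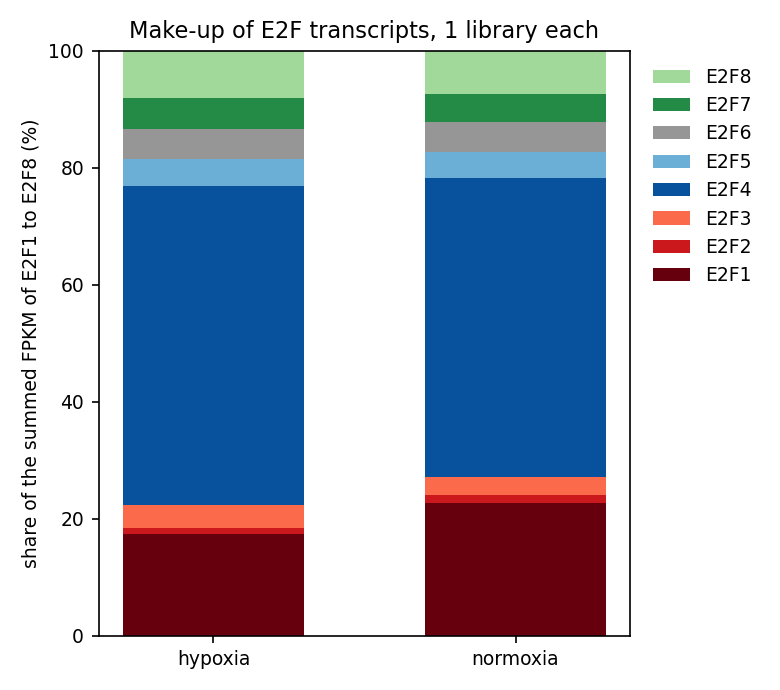
Share of the summed FPKM of E2F1 to E2F8 held by each gene, in percent, in the hypoxia and normoxia libraries (1 library each). E2F1 takes 17.4% in hypoxia and 22.6% in normoxia, and E2F4 takes 54.6% and 51.2%.

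The partners of E2F factors and the MuvB and MYB proteins that share their complexes were described as a list of 12 genes, of which 11 were tested. Of these, 8 had a ratio below 0 and 3 above, and the interval lay wholly below 0 for 3 (TFDP1, MYBL1 and MYBL2; 27.3%, against 14.0% of all genes tested) and wholly above for 1 (RBL2; 9.09%, against 15.0%). Their median log2 ratio was -0.058. TFDP1, the main DP partner, had 1425 counts in hypoxia against 1509 in normoxia (log2 ratio -0.18, -0.28 to -0.07), and E2F1 was lower relative to TFDP1 as well (-0.30, -0.47 to -0.13). TFDP2 had 1425 and 1309 counts, a log2 ratio of 0.03 (-0.08 to 0.14). FOXM1, which drives mitotic genes, had 2365 and 2236 counts, a log2 ratio of -0.01 (-0.10 to 0.07), MYBL2, its partner in late cell cycle transcription, was at -0.06 (-0.11 to -0.00), and the lowest value was that of the MuvB subunit LIN52 (-0.26, -0.56 to 0.05).

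Of 17 genes upstream of the pocket proteins (cyclins, kinases, kinase inhibitors, SKP2 and CKS1B), 16 were tested. The interval lay wholly below 0 for 3 (CCND1, CCND3 and CDK2; 18.8%, against 14.0% of all genes tested) and wholly above for 2 (CDKN1B and CKS1B; 12.5%, against 15.0%), both near the shares of all genes, with a median log2 ratio of -0.041. CCND1, the cyclin that starts pocket protein phosphorylation with CDK4 and CDK6, had 6356 counts in hypoxia against 7178 in normoxia (log2 ratio -0.27, -0.32 to -0.22). CDK4 had a log2 ratio of -0.01 (-0.07 to 0.04) and CDK6 of -0.05 (-0.20 to 0.10). The E cyclins, which are E2F targets, had log2 ratios of -0.16 (CCNE1, -0.38 to 0.07) and -0.30 (CCNE2, -0.73 to 0.12, on 89 and 103 counts). The kinase inhibitor CDKN1A had a log2 ratio of 0.10 (-0.04 to 0.23) and its relative CDKN1B of 0.13 (0.00 to 0.26).

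G1/S genes, known targets of activating E2F factors, were more often lower than higher in hypoxia. Of 50 genes, 41 (82%) had a ratio below 0, against 6272 of the 12725 genes tested. The interval lay wholly below 0 for 19 (38%) and wholly above for 0, against 14.0% and 15.0% of all genes tested. Their median log2 ratio was -0.088. The smaller threshold was met on the lower side by 3 of the 50, against 3.29% of all genes tested. CDC45, a part of the replicative helicase, had 634 counts in hypoxia against 778 in normoxia (log2 ratio -0.39, -0.54 to -0.23). DSCC1, a clamp loader subunit, was at -0.36 (-0.66 to -0.06), and the helicase subunit GINS4 was at 0.09 (-0.08 to 0.25).

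Mitotic genes, which the DREAM complex of E2F4, RBL2 and MuvB is known to repress, had another pattern. Of 30 genes, 18 had a ratio above 0, against 6453 of the 12725 genes tested. The interval lay wholly above 0 for 11 (36.7%, against 15.0% of all genes tested) and wholly below for 5 (16.7%, against 14.0%, near the share of all genes). These genes had 536 to 14738 counts in hypoxia, and the shares of all genes are not matched for counts. Their median log2 ratio was 0.038, and 0 met the smaller threshold in either direction. HMMR, a spindle protein, had 1323 counts in hypoxia against 1040 in normoxia (log2 ratio 0.25, 0.14 to 0.37), and the kinesin KIF20A was at 0.22 (0.14 to 0.29). KIF2C at -0.17 (-0.28 to -0.06) and the mitotic kinase CDK1 at -0.16 (-0.27 to -0.06) were lowest.

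**Figure D4:**
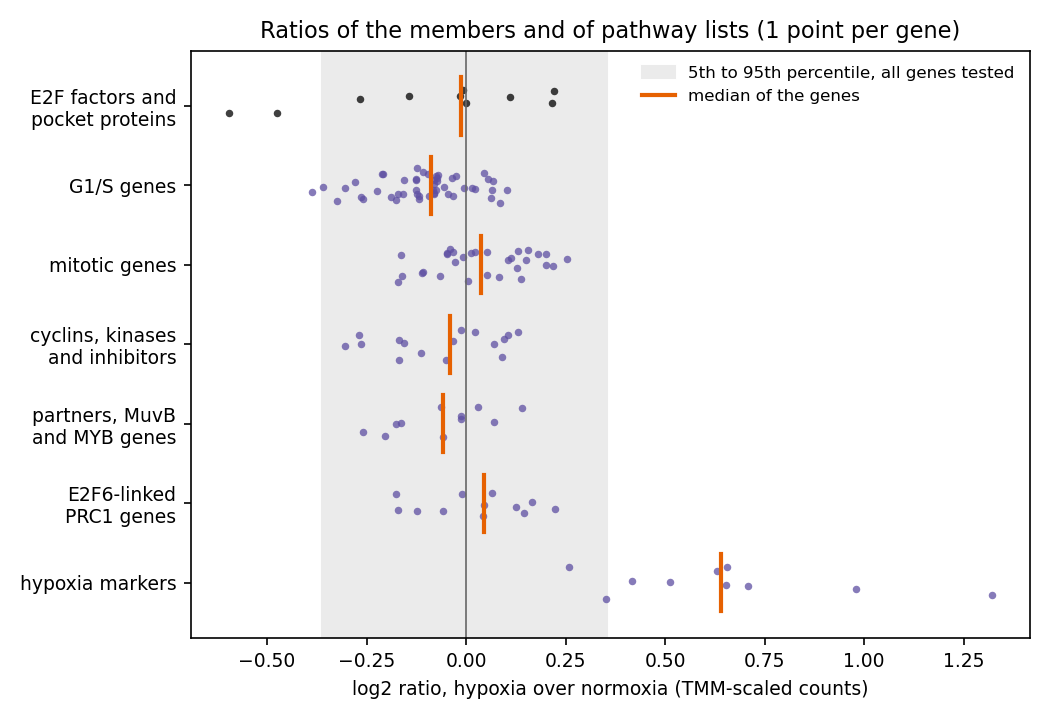
Log2 ratio of hypoxia over normoxia of each gene (points) in the members and in 6 lists, with the median of each (orange) and the 5th to 95th percentile of all genes tested (grey). E2F2 and E2F1 lie to the left of the grey range, the G1/S genes centre at -0.088 and the mitotic genes at 0.038.

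The E2F words were also looked for in the promoters of these lists. Of the G1/S genes, 24 of the 41 with a promoter in the table (58.5%) held one, against 3 of 25 mitotic genes (12.0%). The CHR words were found in 18 of the 25 mitotic genes (72.0%) and 5 of the 41 G1/S genes (12.2%). Within the G1/S genes the median log2 ratio was -0.10 over the 24 with an E2F word and -0.12 over the 17 without. Within the mitotic genes it was -0.11 over the 3 with an E2F word, all 3 below 0, and 0.068 over the 22 without, of which 7 were below 0. Split by CHR word, the median of the mitotic genes was 0.014 over the 18 with a word, of which 8 were below 0. It was 0.084 over the 7 without, of which 2 were below 0. Over all genes tested the median was -0.0043 for the 699 with an E2F word and 0.0052 for the 9579 without. For the CHR words it was 0.016 for the 1586 with a word and 0.0024 for the 8692 without.

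The polycomb complex that E2F6 works with had no common direction. Of its 12 genes 7 had a ratio above 0, and the interval lay wholly above 0 for 2 and wholly below for 2 (16.7% each, near the 15.0% and 14.0% of all genes tested), with a median log2 ratio of 0.044. MGA, the scaffold of the complex, was highest at 0.22 (0.11 to 0.34) and L3MBTL2 was at 0.16 (0.04 to 0.29), while the subunits RING1 (-0.17, -0.28 to -0.06) and PCGF6 (-0.17, -0.40 to 0.05) were lowest. Of 8 germline genes that E2F6 is known to silence, 1 passed the filter: SMC1B, a meiotic cohesin subunit, had 249 counts in hypoxia against 210 in normoxia (log2 ratio 0.15, -0.12 to 0.43).

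The miRNA clusters miR-17-92 and miR-106b-25 are known E2F targets whose products act back on E2F mRNAs, so they were looked up in the miRNA-seq libraries. These held 6576 reads in hypoxia against 32116 in normoxia counted on 141 miRNAs, and of 21 listed miRNAs 4 were among them. The library totals that the authors' TPM imply are 10936385 in hypoxia and 8889769 in normoxia. The miRNA counts are thus a small part of either total, and the smaller part in hypoxia, which limits every miRNA ratio. The mature sequences are given from RefSeq with the seed (bases 2 to 8) in capitals.
miR-25-3p: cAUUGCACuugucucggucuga
miR-92a-3p: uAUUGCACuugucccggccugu
miR-106b-3p: cCGCACUGuggguacuugcugc
miR-25-5p: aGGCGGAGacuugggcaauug
miR-25-3p and miR-92a-3p share the seed AUUGCAC. The miR-17-5p family and the miR-34 family, known regulators of E2F mRNAs, had no row among the 141.

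The genes of miR-25 and miR-106b lie within the span of MCM7 on chromosome 7 (100092728 to 100101397, GRCh38.p14), itself an E2F target, which had 8545 counts in hypoxia against 8558 in normoxia (log2 ratio -0.09, -0.14 to -0.05). miR-25-3p had 11 reads in hypoxia against 957 in normoxia, and miR-106b-3p had 39 and 308. miR-92a-3p, which comes from genes on chromosomes 13 and X, had 207 reads in hypoxia against 1046 in normoxia, and miR-25-5p had 20 and 0. With TMM scaling the log2 ratios were -4.57 (-5.57 to -3.72) for miR-25-3p, -1.10 (-1.62 to -0.62) for miR-106b-3p and -0.46 (-0.68 to -0.24) for miR-92a-3p. Against a floor of 3 counts in normoxia, miR-25-5p was 24.5-fold higher in hypoxia (log2 ratio 4.61), a value that leaves out the counting error of its 20 reads. The lower limit of its counting interval, taken with 0 reads in normoxia, was a log2 ratio of 4.18. The scaling decides the size of all 4. With the library totals that the authors' TPM imply, the log2 ratios were -6.74 for miR-25-3p, -3.28 for miR-106b-3p and -2.64 for miR-92a-3p. With these totals miR-25-5p was 5.42-fold higher against the floor, with a lower limit of 2.00 as a log2 ratio. With total miRNA counts miR-92a-3p was at -0.05. The arms of miR-25 thus lay in opposite directions under all 3 scalings, on few reads.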

How the data were processed

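RNA-seq and miRNA-seq were each run on 1 hypoxia and 1 normoxia library. The authors deposited whole-number counts per gene and per mature miRNA, FPKM per gene, and TPM per miRNA. Per the submitters' processing notes, Trimmomatic, HISAT2, Cufflinks, HTSeq, Bowtie and the build GRCh38 were used, with versions and roles not given in the sources used here. Per the labels' protocols, stranded mRNA and small RNA kits were used. The deposited FPKM equal the counts divided by the library total and a gene length, and the implied length was a whole number (to 0.01 bases) for 100% of the genes with reads. The deposited TPM equal the counts times 1 constant per library.

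Counts were scaled by TMM in edgeR 4.0.16 (R 4.3.3). Ratios have exact conditional (Clopper-Pearson) 95% intervals, levels exact Poisson ones, ratios between genes exact conditional ones, and quotients of summed levels delta-method ones. All cover counting error only, and reads that carry no molecular identifier may be copies of 1 molecule. A count of 0 was set at a floor of 3. Python 3.11.15, numpy 2.4.6, pandas 2.3.3, scipy 1.17.1, statsmodels 0.14.6 and matplotlib 3.10.9 were used. The code for intervals and calls was run on simulated Poisson counts. These hold counting error only, so the simulation cannot show how the intervals behave with variation between cultures.

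The members, gene lists and rules were chosen with earlier results of these data known, and the promoter words and ranges of counts after the data had been seen. Named were all members, the 2 highest and 2 lowest tested genes of each list and a fixed set of regulators. Not every gene the rule reached is printed. Gene spans, promoters and miRNAs come from RefSeq (GRCh38.p14). Promoters matched 8 of the 10 members. That of RB1 lies 172699 bases from the gene start, and it is counted among the 8 but not printed. Of the 7 members with a promoter at the gene start, 4 held an E2F word there. The hypoxia response core was found in 3 of these 7 and a CHR word in 1. Alternatives were scaling by DESeq2 1.42.0, by library total or by upper quartile, FPKM plus 1 or plus 0.1, the filter dropped or raised to a CPM of 5, and removal of the length trend.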

Additional observations from a re-analysis of the deposited data

How the results depend on the processing

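All alternatives were planned together with the rules. Each of the 10 members and each of 6 list medians stayed within its counting interval (for a list, that of its median gene) under each of the 8 alternatives. The intervals of E2F1, E2F2 and RBL1 stayed wholly below 0 under each of the 3 other scalings and the length correction. That of E2F3 stayed above 0 except with the length trend removed. All 10 members passed both filters, which cannot change a member's own ratio. FPKM carry no interval; with 1 added to each value the log2 ratio of E2F2 was -0.33. E2F1 relative to the 9 other members was kept with FPKM plus 0.1. Gene length and library total cancel in these ratios, so apart from the added 0.1 this repeats the same calculation and is no separate check. The shares of E2F transcripts are the same from counts per kilobase by definition, so that alternative is no separate check. The direction of E2F8, at a ratio of 1.00, changed with the scaling (log2 ratio -0.0098 with total counts). Among all genes, the 60 called higher were 6 from FPKM plus 1, 30 from FPKM plus 0.1, 107 unfiltered, 7 above a CPM of 5 and 434 at the smaller threshold of 0.32. The 56 called lower were 1, 20, 104, 1 and 419 in the same order. Total counts moved 1 of 4 miRNA ratios and the implied totals moved 4 of 4, with none reversed. No paired analysis was possible because each group has 1 library, and for the same reason no replicate could be left out. Depth limits RB1 and E2F2, which rest on 99 to 153 counts, and the miRNAs most.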
